A study of Mus musculus with 18 samples.

Results

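The comparison described here is that of CD69+ MHC I high with CD69+ MHC I low thymocytes of the same wild-type (WT) mice, and it comprises 6 of the 18 RNA sequencing samples of the study, with both fractions of 3 WT mice. Both fractions were sorted from thymus as T-lineage cells carrying CD69, an early activation marker that appears after the T-cell receptor (TCR) has been engaged, and were separated by the surface level of the MHC class I molecule H2-Kb. Dead cells and cells with the γδ TCR, MHC II, NK1.1, Mac-1, Gr1, B220, CD44 or CD25 on their surface had been gated out. All genes with at least 0.5 CPM (counts scaled to the same library total) in at least 3 of the 18 samples were tested. Predicted genes, genes lacking a symbol, *Xist* and genes of chromosome Y were removed, which left 12798 of the 27179 genes in the count table. The other samples, used here only where the WT change is set beside the mutant change, came from 3 *Hoil* ΔCd4 mice, in which *Rbck1* (the gene of HOIL-1) is deleted by *Cd4* Cre in the T lineage, and from 3 *Sharpin* cpdm mice, in which no cell type makes SHARPIN. The WT strain was C57BL/6. *Sharpin* cpdm mice came from C57BL/Ka stock that had been backcrossed to C57BL/6, and the paper describes their background as still largely C57BL/Ka. Mice of both sexes were used, and the sources used here do not give the age of the mice sequenced or a treatment.

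Thymocytes with both CD4 and CD8 (double-positive, DP) rearrange their TCR α chain genes and test the product against self peptide bound to MHC. Cells that receive a TCR signal of moderate strength are positively selected, gain CD69, settle on the CD4 or the CD8 lineage and move from cortex to medulla. Before they leave the thymus they stop responding to the selecting signal, gain surface MHC I, and acquire the receptors with which naive T cells enter the blood and lymph nodes. The MHC I high fraction is thus the later stage of the pair.

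The 6 WT samples held between 12808248 and 16266128 counts on genes. Levels below are CPM scaled by TMM (a factor that equalises samples for composition), and differences are log2 of the MHC I high over the MHC I low level from a limma model of all 18 samples in which the fractions of a mouse are paired. Genes with an adjusted p (Benjamini-Hochberg) under 0.05 are termed called. Because the log2 values carry a prior count of 1, they understate the change of genes with few reads. The samples are mixtures of cells, so fewer cells of a type and less RNA per cell cannot be told apart.

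In the main model, most genes tested differed in level between the fractions. The share called was lower in several other analyses, at 49.4% with edgeR, 38.7% without WT mouse 3 and 34.3% with DESeq2 on the WT samples alone. It was 54.7% with scaling by library size only, and 58.6% of 10900 genes with at least 10 counts in every sample. Of the 12798 genes, 6956 were called (54.4%), 3523 of them higher in MHC I high cells (27.5%) and 3433 lower (26.8%). Most of these differences were small: 2608 of the genes that rose and 3007 of those that fell changed by less than 2-fold. With a fold change of at least 2 as a second condition, 915 genes rose (7.15%) and 426 fell (3.33%). The large changes were unequally divided between the directions, since 79 genes rose but 17 fell by 8-fold or more, and 234 rose but 69 fell by 4- to 8-fold. Among the 3200 genes with the lowest mean level, 472 rose and 247 fell by at least 2-fold, whereas the 3200 with the highest mean level had 92 and 51. Each mouse gave much the same picture. Over all 12798 genes, the changes in pairs of mice correlated at Pearson r = 0.787 to 0.795. The direction was the same in all 3 mice for 8552 of these genes. Among the called genes 6599 changed in the same direction in all 3 mice, and the 3 samples of each fraction did not overlap for 6033 of them. The calls rest on these same mice, so the counts among called genes are not a separate check. Non-overlap alone was found for 52.7% of all genes tested. The median over genes of the SD of the 3 paired differences was 0.14 on the log2 scale.

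**Figure D1:**
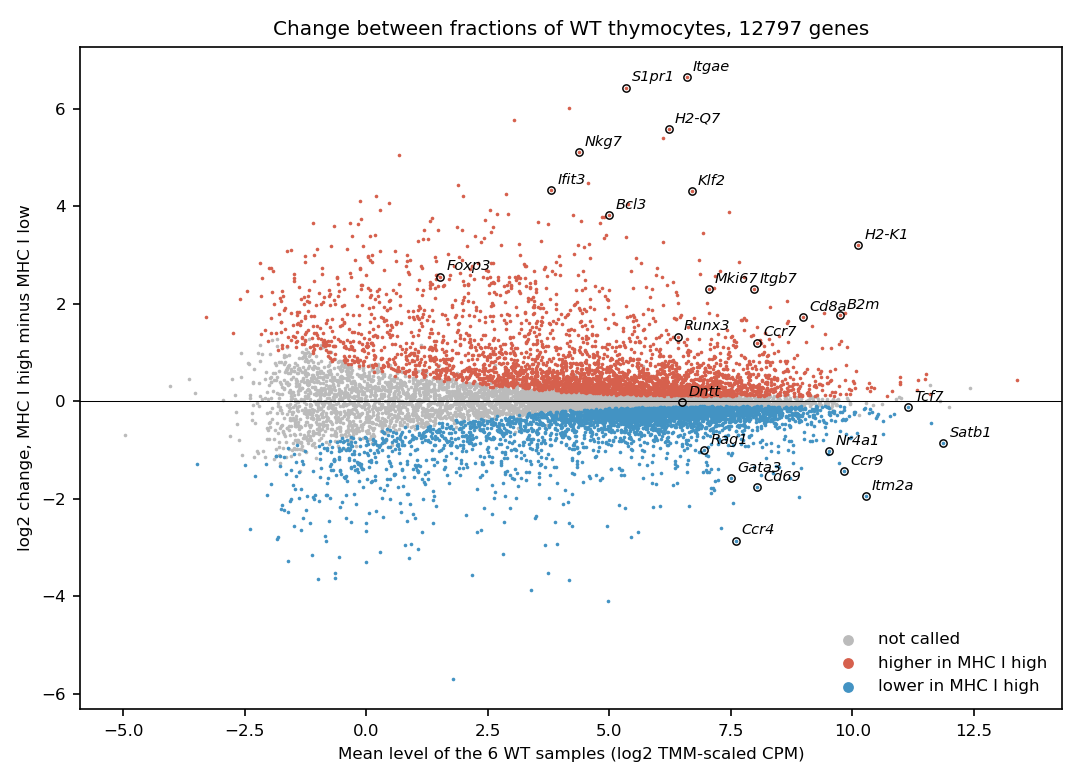
Change between the fractions against mean level of the 6 WT samples, on log2 scales, for the 12797 tested genes with a count in WT. Each point is a gene, red where called higher and blue where called lower in MHC I high cells, and circles mark labelled genes. *Itgae* (6.65) and *S1pr1* (6.44) lie at the top, *Ccr4* (−2.86) and *Itm2a* (−1.95) lie among the labelled genes near the bottom, and *Dntt* lies on the zero line.

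The transcripts of MHC I itself were first compared, since surface H2-Kb defined the fractions and its gene checks the sort. *H2-K1*, which encodes the heavy chain of H2-Kb (chr17:33996012-34000619, RefSeq annotation of GRCm38.p6), stood at 213, 212 and 222 CPM in the MHC I low samples and at 2034, 1987 and 1987 CPM in the MHC I high samples. The means were 216 ± 5.87 and 2003 ± 27.0 CPM (SD, n = 3), a 9.26-fold rise (log2 3.21 ± 0.05 SE, adjusted p = 1.13e-29). The lowest MHC I high sample was far above the highest MHC I low sample, which is the order that the gates set. *H2-D1*, the second classical heavy chain on this background, rose from 301, 310 and 285 CPM to 1072, 1115 and 1025 CPM (log2 1.82 ± 0.04). *B2m*, which encodes the invariant light chain that all these heavy chains need to reach the surface (chr2:122147687-122153082), rose from 386, 387 and 377 CPM to 1262, 1492 and 1275 CPM (log2 1.77 ± 0.05). The light chain and both classical heavy chains were thus separated between fractions in every mouse. The measured factor was larger for *H2-K1* than for *H2-D1* and *B2m*, a difference that was not tested.

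Of the 13 chain genes tested, 11 rose, 8 of them by at least 2-fold, *Mr1* fell and *Cd1d1* was not called. The median of the 13 was 1.28 on the log2 scale, beside −0.0042 over all genes tested, of which 27.5% rose and 26.8% fell. *Mr1*, which presents vitamin B metabolites to mucosal-associated invariant T cells, fell from 25.8 to 20.5 CPM (log2 −0.30). *Cd1d1*, which presents lipids to natural killer T cells, measured 76.3 and 68.6 CPM. The non-classical gene *H2-Q7* rose from 2.18, 3.45 and 3.36 CPM to 153, 150 and 135 CPM, and its neighbour *H2-Q6* from 0.26, 0.26 and 0.16 CPM to 16, 16.9 and 15.5 CPM. The *H2-Q* and *H2-T* genes resemble each other and *H2-K1* closely, and how reads that match several of them were counted is not given in the sources used here, so the values of single members are uncertain.

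The promoters of the chain genes are shown because these genes moved together. RefSeq promoters (GRCm38.p6, 250 bases before to 50 bases after the start of the gene, the first listed start where there were several) were found for 9985 of the 12798 genes tested, including 10 of the 13 chain genes. They were searched on both strands for the NF-κB type decamer and for 2 spacings of the interferon-stimulated response element, GAAANNGAA and GAANNGAAA. The latter spacing was added after the *H2-K1* promoter had been read. The *H2-K1* promoter (chr17:34000298-34000597, minus strand), the *H2-D1* promoter (chr17:35262844-35263143, plus strand) and the *B2m* promoter (chr2:122147437-122147736, plus strand) are printed 5′ to 3′ in the direction of transcription, with every match to these motifs in capitals.
H2-K1: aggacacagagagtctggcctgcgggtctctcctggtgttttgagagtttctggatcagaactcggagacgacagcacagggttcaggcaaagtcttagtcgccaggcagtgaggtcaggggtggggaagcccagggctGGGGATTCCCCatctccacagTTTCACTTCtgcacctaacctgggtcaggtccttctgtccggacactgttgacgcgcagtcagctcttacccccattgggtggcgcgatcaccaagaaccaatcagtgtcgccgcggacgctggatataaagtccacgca
H2-D1: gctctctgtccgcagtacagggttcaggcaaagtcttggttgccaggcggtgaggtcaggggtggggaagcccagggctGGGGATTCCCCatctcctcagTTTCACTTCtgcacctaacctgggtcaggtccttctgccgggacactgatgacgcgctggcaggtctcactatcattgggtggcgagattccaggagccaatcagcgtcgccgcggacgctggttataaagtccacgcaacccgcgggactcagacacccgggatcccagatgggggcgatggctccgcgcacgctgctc
B2m: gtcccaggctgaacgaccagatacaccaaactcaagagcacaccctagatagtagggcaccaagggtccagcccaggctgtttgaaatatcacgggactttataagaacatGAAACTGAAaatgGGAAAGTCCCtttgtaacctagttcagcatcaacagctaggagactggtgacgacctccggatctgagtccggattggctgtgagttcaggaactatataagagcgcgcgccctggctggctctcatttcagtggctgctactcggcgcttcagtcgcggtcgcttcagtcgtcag

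In *H2-K1* and *H2-D1* the first run of capitals holds the NF-κB type decamer in a pair of overlapping registers, each read on both strands. It starts 111 bases before the listed *H2-K1* start used here and 171 bases before the *H2-D1* start. The *H2-K1* window (chr17:34000298-34000597) lies wholly within the gene span given above (chr17:33996012-34000619). Its decamer is therefore not upstream of that span. The second run is the interferon element in its other spacing. The order is turned round in *B2m*, where GAAACTGAA comes first, at 139 bases before the start, and the decamer follows at 126 bases. The decamer was present in 8 of the 10 chain gene promoters (80.0%) and in 10.1% of all promoters. GAAANNGAA, the spacing planned first, was in 3 of 10 (30.0%) and in 7.09% of all promoters. The added spacing was in 6 of the 10 chain gene promoters (60.0%) and in 5.83% of all. These promoters are related in sequence and are not independent of each other. Among the promoters of genes that rose by at least 2-fold, 14.1% held the decamer and 14.7% the interferon element GAAANNGAA, beside 12.4% and 5.23% for genes that fell by at least 2-fold and 10.1% and 7.09% for all genes. With the added spacing the shares were 9.73%, 4.25% and 5.83%. The KLF type box CCACACCC was found in 4.51%, 4.90% and 3.80% of these sets and the E-box CACCTG in 19.9%, 21.9% and 17.6%. A match describes letters in the window and is not evidence that a factor binds there.

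Genes that supply peptides to MHC I rose with the chains, though by less. In this list 13 of 15 genes rose, 5 of them by at least 2-fold (27.5% and 7.15% of all genes), 2 were not called, and the median was 0.61. *Nlrc5*, the transactivator of MHC I genes, rose from 212, 198 and 192 CPM to 647, 557 and 613 CPM (log2 1.61 ± 0.06, adjusted p = 6.60e-20). *Tap1*, a subunit of the transporter that carries peptides into the endoplasmic reticulum, rose from 208, 190 and 202 CPM to 457, 455 and 449 CPM (log2 1.17 ± 0.05). Its partner *Tap2* rose by 0.17, from 203 to 230 CPM, a smaller value than that of *Tap1*, and this difference was not tested. *Psmb9* and *Psmb8*, catalytic subunits of the immunoproteasome, rose by 1.39 and 0.40. The general chaperones moved little, with *Calr* at 0.17 and *Canx* at 0.12, and *Canx* was not called.

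The interferon-responsive genes shifted almost as a block. All 36 listed genes were called, 35 higher in MHC I high cells and 24 of these by at least 2-fold (27.5% and 7.15% of all genes), and the median was 1.37. *Irf7*, a transcription factor of type I interferon induction, rose from 60.5, 62.0 and 52.2 CPM to 222, 207 and 193 CPM (log2 1.81 ± 0.08), and *Irf9*, a transcription factor of the response to type I interferon, rose from 116 to 235 CPM (log2 1.01). Every MHC I high sample lay above every MHC I low sample for *Irf7*. Among the target genes, *Ifit3*, which restrains viral RNA, rose from 1.28, 1.41 and 0.94 CPM to 27.1, 29.4 and 23.3 CPM (log2 4.34 ± 0.26). The *Mx1* transcript rose from 2.43, 1.47 and 1.02 CPM to 25.8, 19.1 and 19.8 CPM (log2 3.69 ± 0.37). *Samhd1*, a nucleotide hydrolase that limits viruses, fell from 485 to 389 CPM (log2 −0.36) and was the exception. The receptor chains *Ifnar1* (0.42), *Ifnar2* (0.52) and *Ifngr2* (0.48) rose by less than 2-fold, and *Ifngr1* measured 72.2 and 68.5 CPM (adjusted p = 0.25).

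Of the 24 interferon list genes with a RefSeq promoter, 16 (66.7%) held GAAANNGAA on a strand, beside 7.09% of all promoters. Windows of 40 bases round the first match are shown for 4 of them, chosen after the values were seen, because a repeat of the element is visible in each. They lie at chr19:34640765-34640804 (plus strand), chr4:156200872-156200911 (minus strand), chr5:120907521-120907560 (minus strand) and chr8:71537578-71537617 (minus strand), with matches in capitals.
Ifit1: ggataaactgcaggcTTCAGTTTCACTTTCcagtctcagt
Isg15: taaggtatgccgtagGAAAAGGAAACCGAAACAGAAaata
Oas1a: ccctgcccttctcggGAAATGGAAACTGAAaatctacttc
Bst2: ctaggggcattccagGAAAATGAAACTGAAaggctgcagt

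The levels of the 4 genes rose between the fractions. *Ifit1* rose from 21.6, 16.1 and 13.0 CPM to 115, 118 and 90.3 CPM (log2 2.59 ± 0.23), and *Isg15*, a ubiquitin-like modifier, from 18.6, 17.8 and 12.4 CPM to 51.2, 59.9 and 45.0 CPM (log2 1.61 ± 0.19). *Oas1a*, which makes the activator of RNase L, rose from 1.54, 2.81 and 1.17 CPM to 9.46, 12.3 and 8.41 CPM (log2 2.44 ± 0.23). *Bst2*, the tether that holds back budding viruses, rose from 22.3, 27.8 and 20.3 CPM to 69.8, 85.6 and 63.0 CPM (log2 1.57 ± 0.11).

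**Figure D2:**
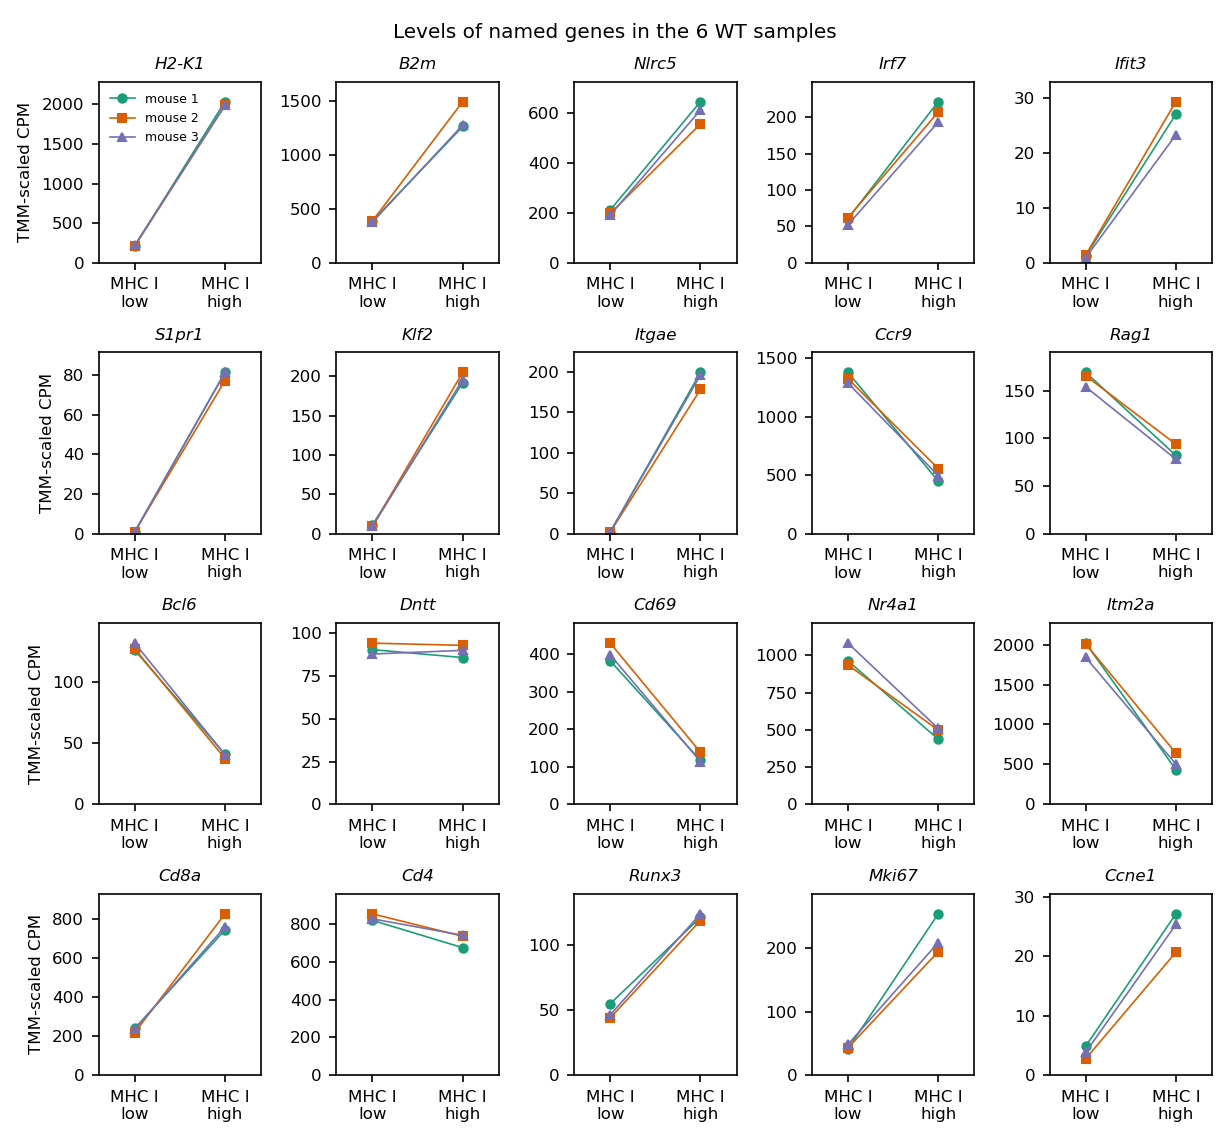
Levels of 20 genes in the 6 WT samples, in TMM-scaled CPM on linear axes that start at 0, with the fractions on the horizontal axis and a line for each mouse. The lines of the 3 mice run close together, from about 212 to 2034 CPM for *H2-K1* and from 430 down to 114 CPM for *Cd69*, and those of *Dntt* are level.

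Genes of the preceding DP stage fell more often than they rose. In the list of 15 genes tested (*Cplx2* did not pass the filter), 9 fell, 3 rose and 3 were not called, with a median of −0.44. Shares over all genes were 26.8% lower and 27.5% higher. Those that rose were *Ptcra* and the coreceptor genes *Cd8a* and *Cd8b1*, which are also counted in the list of CD4 and CD8 lineage genes below. *Rag1*, a subunit of the recombinase that rearranges TCR genes (chr2:101638252-101649532), fell from 170, 166 and 154 CPM to 82.1, 93.9 and 78.1 CPM (log2 −1.0 ± 0.13). *Rag2*, its partner, fell from 7.81, 7.87 and 9.54 CPM to 5.82, 4.64 and 4.55 CPM (log2 −0.78 ± 0.18, adjusted p = 5.51e-04). Without WT mouse 3 the adjusted p of *Rag2* was 0.07. *Dntt*, the polymerase that adds bases at the junctions, stood at 90.5, 94.3 and 87.9 CPM in MHC I low cells and at 85.8, 93.0 and 90.1 CPM in MHC I high cells, with overlapping groups (log2 −0.02 ± 0.12). The transcripts of the recombination machinery thus did not all decline together. *Cd24a*, a surface glycoprotein lost on maturation, fell from 173, 173 and 189 CPM to 51.7, 75.9 and 68.2 CPM (log2 −1.46 ± 0.11), and *Bcl6*, a transcriptional repressor, from 128 to 39.5 CPM (log2 −1.68). *Ptcra*, the surrogate α chain of earlier thymocytes, rose from 0.46 to 1.40 CPM, a low level in both fractions.

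Genes that respond to TCR signals fell as a group. Of 20 genes, 19 were lower in MHC I high cells, 10 by at least 2-fold (26.8% and 3.33% of all genes), 1 was not called, and the median was −1.01. *Cd69* itself (chr6:129267324-129275375), whose protein both gates required, fell from 383, 430 and 399 CPM to 117, 139 and 114 CPM (log2 −1.76 ± 0.06, adjusted p = 1.85e-18). The immediate-early nuclear receptor *Nr4a1* fell from 963, 935 and 1082 CPM to 437, 498 and 509 CPM (log2 −1.03 ± 0.05). The highest MHC I high sample was below the lowest MHC I low sample for both genes. *Egr2* and *Egr1*, transcription factors induced through the ERK pathway, fell by 1.45 and 0.99 on the log2 scale, whereas *Egr3* was level at 29.1 and 29.6 CPM (adjusted p = 0.997). *Itm2a*, a membrane protein raised during positive selection, fell from 2018, 2009 and 1839 CPM to 432, 640 and 502 CPM (log2 −1.95 ± 0.09). *Cd5*, an inhibitory receptor scaled to TCR signal strength, fell from 1156 ± 53.3 to 719 ± 64.4 CPM (log2 −0.68), and *Pdcd1*, which encodes the inhibitory receptor PD-1, from 121 to 54.6 CPM (log2 −1.12).

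Genes of the TCR complex and of proximal signalling went both ways. Among 23 genes 10 rose and 9 fell, beside 27.5% and 26.8% of all genes, 1 of them changed by 2-fold or more, and the median was 0.04. *Cd3e*, a signalling chain of the receptor, rose from 408 to 523 CPM (log2 0.35), and the kinase *Lck* from 1212 to 1418 CPM (log2 0.21). The kinase *Zap70* fell from 472 to 398 CPM (log2 −0.25). *Cd28*, the costimulatory receptor, was the gene beyond 2-fold, falling from 1204, 1206 and 1151 CPM to 440, 544 and 510 CPM (log2 −1.26 ± 0.06). *Ptpn22* and *Cblb*, which restrain TCR signalling, rose by 0.66 and 0.62.

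Coreceptor genes and the factors of the CD4 and CD8 lineages moved in opposite directions. *Cd8a* (chr6:71373427-71379171) rose from 240, 218 and 236 CPM to 745, 828 and 761 CPM (log2 1.73 ± 0.06, adjusted p = 1.81e-19), and *Cd8b1* from 110, 97.0 and 90.9 CPM to 307, 383 and 319 CPM (log2 1.71 ± 0.10). *Cd4* fell from 819, 854 and 827 CPM to 675, 735 and 740 CPM (log2 −0.20 ± 0.05). *Runx3*, the factor of the CD8 lineage, rose from 54.8, 43.9 and 46.3 CPM to 121, 119 and 124 CPM (log2 1.33 ± 0.06). *Zbtb7b*, which encodes the CD4 lineage factor ThPOK, fell from 364, 453 and 362 CPM to 283, 332 and 301 CPM (log2 −0.36 ± 0.07). *Gata3*, which acts upstream of *Zbtb7b*, fell from 271 to 89.8 CPM (log2 −1.58), and *Tox*, required for CD4 lineage development, from 496 to 197 CPM (log2 −1.33). Over the 13 genes of this list 5 rose and 7 fell, beside 27.5% and 26.8% of all genes. The fractions were not divided by CD4 and CD8 in the sort, so their lineage make-up and the level per cell cannot be told apart.

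T-lineage transcription factors were mostly lower, with 11 of 16 falling, 4 rising (26.8% and 27.5% of all genes) and a median of −0.24. *Tcf7*, which encodes TCF-1, fell from 2353 to 2182 CPM (log2 −0.12), a small change that was not called without WT mouse 1 or without WT mouse 3 (adjusted p up to 0.279). Its relative *Lef1* fell from 982 to 463 CPM (log2 −1.08), the chromatin organiser *Satb1* from 4828 to 2672 CPM (log2 −0.85) and *Myb* from 639 to 204 CPM (log2 −1.58). *Foxo1*, the forkhead factor upstream of *Klf2*, rose from 122, 91.7 and 103 CPM to 347, 341 and 338 CPM (log2 1.68 ± 0.07, adjusted p = 1.00e-15), and *Notch1* rose from 216 to 314 CPM (log2 0.54).

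Large differences were found among egress and homing genes. Of 19 genes 11 rose and 6 fell, 9 and 4 of them by at least 2-fold, and the median was 0.53. Among all genes 27.5% rose and 26.8% fell, 7.15% and 3.33% by at least 2-fold. *Klf2*, the Krüppel-like factor that switches on the egress programme (chr8:72319062-72321654), rose from 11.0, 9.34 and 8.99 CPM to 192, 205 and 196 CPM, which was a 19.9-fold rise (log2 4.31 ± 0.08, adjusted p = 3.18e-25). *S1pr1*, the receptor that draws cells into the blood along sphingosine-1-phosphate and a target of KLF2 (chr3:115710433-115715055), stood at 0.83, 0.90 and 0.86 CPM and then at 81.4, 77.3 and 81.4 CPM, an 86.7-fold rise (log2 6.44 ± 0.13, adjusted p = 7.83e-27). For both genes every MHC I high sample lay above every MHC I low sample. *Ccr7*, the receptor that leads to the medulla and to lymph nodes, rose from 154, 168 and 151 CPM to 343, 410 and 356 CPM (log2 1.20 ± 0.05).

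Integrin genes of the list diverged. *Itgae* (CD103, chr11:73090505-73147449), which pairs with the product of *Itgb7* to bind E-cadherin on epithelium, rose from 1.92, 1.73 and 1.88 CPM to 199, 178 and 196 CPM (log2 6.65 ± 0.20). *Itgb7* rose from 86.5, 85.2 and 82.1 CPM to 392, 430 and 427 CPM (log2 2.31 ± 0.05), while *Itgal*, a chain of LFA-1, fell by 0.41 on the log2 scale. Receptors of the cortex and of the early medullary stage fell: *Ccr9*, the receptor for CCL25, from 1377, 1323 and 1285 CPM to 448, 555 and 495 CPM (log2 −1.43 ± 0.05), and *Ccr4* from 346, 342 and 329 CPM to 38, 55.8 and 48.6 CPM (log2 −2.86 ± 0.10). *Cxcr4*, which holds thymocytes in the cortex, fell from 71.1 to 34.4 CPM (log2 −1.02).

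Cytokine receptors and JAK-STAT genes rose more often than they fell, with 20 of 32 genes higher, 7 lower (27.5% and 26.8% of all genes) and a median of 0.35. *Il2rb*, the β chain of the receptors for IL-2 and IL-15, rose from 24.2, 22.5 and 25.1 CPM to 131, 143 and 129 CPM (log2 2.45 ± 0.06, adjusted p = 8.96e-25), and *Il6ra* from 16.1, 12.1 and 15.5 CPM to 82.8, 71.4 and 71.4 CPM (log2 2.33 ± 0.10). *Il7r*, the receptor of the survival cytokine IL-7, fell from 390, 367 and 394 CPM to 295, 284 and 281 CPM (log2 −0.44 ± 0.04), and the common γ chain *Il2rg* was level at 514 and 506 CPM (adjusted p = 0.497). *Jak3*, the kinase bound to the γ chain, rose from 181 to 396 CPM (log2 1.14). The feedback inhibitors divided, since *Cish* rose from 15 to 30.2 CPM (log2 1.04) and *Socs3* from 2.88, 3.39 and 4.61 CPM to 28.9, 23.2 and 30.3 CPM (log2 2.98), but *Socs1* fell from 120 to 70.9 CPM (log2 −0.79).

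NF-κB genes were divided, with 7 of 24 rising, 10 falling and a median of −0.03. Over all genes tested, 27.5% rose and 26.8% fell. *Bcl3*, an atypical IκB protein that partners p50 and p52, rose from 5.31, 3.26 and 3.99 CPM to 60.1, 58.2 and 61.2 CPM (log2 3.82 ± 0.13, adjusted p = 1.93e-19). *Nfkbid*, the related protein IκBNS, fell from 252, 235 and 251 CPM to 122, 122 and 117 CPM (log2 −1.05 ± 0.05). The classical inhibitor *Nfkbia* was level at 197 and 202 CPM (adjusted p = 0.609), and the deubiquitinase *Tnfaip3* (A20) fell from 247 to 152 CPM (log2 −0.70). Of the subunits, *Nfkb1* fell by 0.25 and *Rela* by 0.19 on the log2 scale. The genes of the linear ubiquitin ligase measured 223 and 266 CPM (*Rbck1*, adjusted p = 0.352), 91.3 and 89.7 CPM (*Sharpin*, adjusted p = 0.934) and 101 and 117 CPM (*Rnf31*, which rose by 0.22). The WT groups of *Rbck1* did not overlap, and the spread used for its test also comes from the *Hoil* ΔCd4 samples, in which it is deleted.

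In the TNF superfamily 11 of 20 genes rose, 5 of them by at least 2-fold, and 4 fell, with a median of 0.33. The shares of all genes were 27.5% higher and 26.8% lower. The ligand genes *Ltb* (lymphotoxin β) and *Tnfsf8* rose by 1.27 and 1.79, *Ltb* from 159, 154 and 159 CPM to 373, 438 and 366 CPM. *Tnfsf11*, which encodes RANKL, the signal of thymocytes to medullary epithelium, fell from 73.8 to 53.9 CPM (log2 −0.46). The receptor *Tnfrsf1b* rose from 93.1 to 203 CPM (log2 1.13), and *Cd27* fell from 681, 733 and 720 CPM to 405, 403 and 402 CPM (log2 −0.81 ± 0.04). In the BCL-2 family 7 of 15 genes fell and 3 rose, beside 26.8% and 27.5% of all genes. The falling genes lay on both sides of the death decision. The pro-apoptotic *Bcl2l11* (BIM) fell from 517, 488 and 551 CPM to 187, 214 and 209 CPM (log2 −1.35 ± 0.05) and *Bbc3* (PUMA) from 29.7 to 16.1 CPM (log2 −0.93), while the pro-survival *Bcl2* fell from 456 to 325 CPM (log2 −0.47). *Bmf*, a further pro-apoptotic member, rose from 22.7, 21.1 and 32.0 CPM to 44.0, 52.6 and 63.2 CPM (log2 1.15 ± 0.14). The GIMAP GTPases, which support lymphocyte survival, rose in 6 of 8 cases, beside 27.5% of all genes. *Gimap3* rose from 149, 187 and 137 CPM to 664, 642 and 631 CPM (log2 2.06 ± 0.12), while *Gimap6* was level at 648 and 641 CPM.

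**Figure D3:**
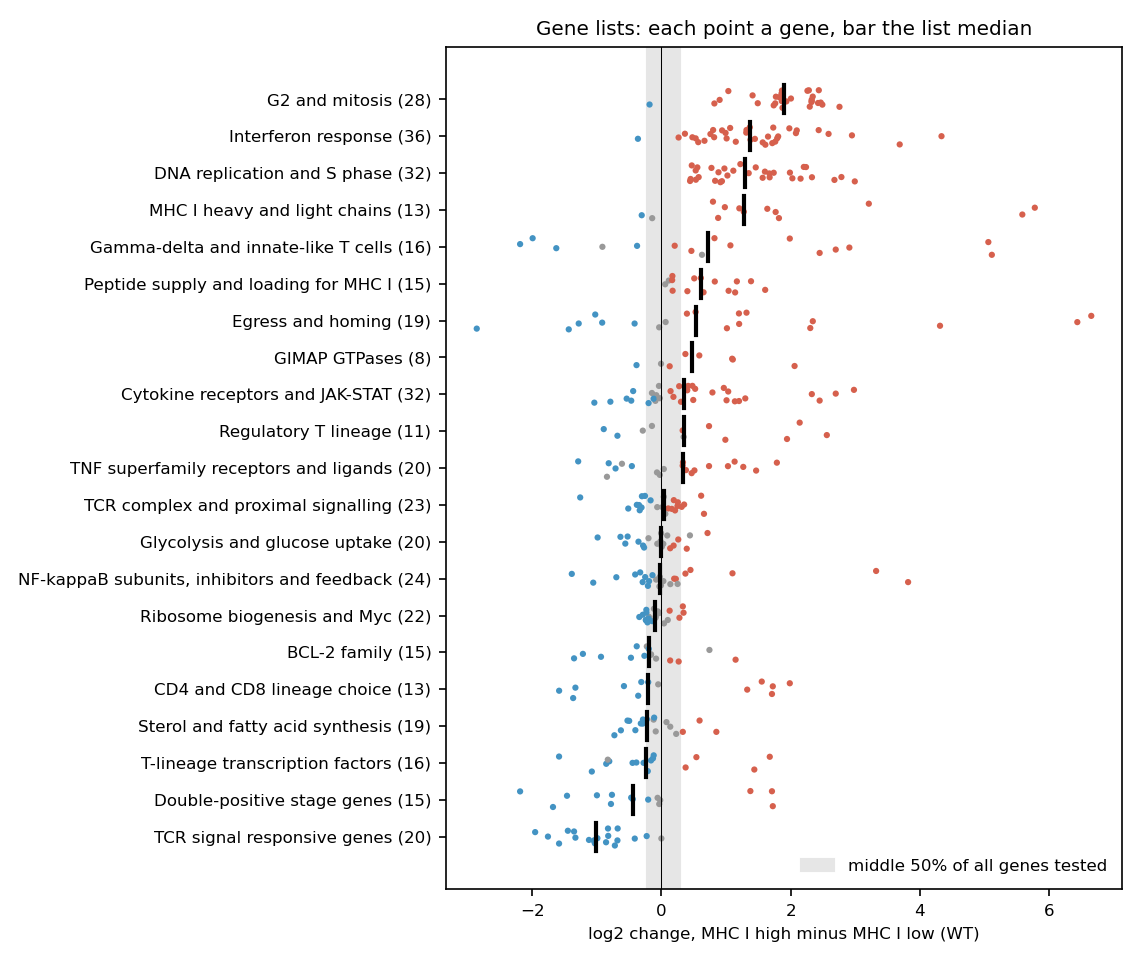
The log2 change between WT fractions for every tested gene of 21 lists, a point for each gene (red called higher, blue called lower, grey not called), with the list median as a black bar and the number of genes in brackets. The grey band spans the middle 50% of all genes tested. The medians run from −1.01 for TCR responsive genes to 1.91 for G2 and mitosis genes.

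Proliferation genes were higher in MHC I high cells. All 32 genes of DNA replication and S phase were called higher, 19 by at least 2-fold (27.5% and 7.15% of all genes), with a median of 1.29. Of 28 genes of G2 and mitosis 27 were higher, 25 by at least 2-fold, with a median of 1.91. *Mki67*, which encodes the proliferation antigen Ki-67 (chr7:135689784-135716450), rose from 41.4, 43.0 and 48.3 CPM to 255, 195 and 209 CPM (log2 2.30 ± 0.14, adjusted p = 6.32e-09). *Top2a*, the topoisomerase that separates sister chromatids, rose from 45.1, 44.1 and 54.0 CPM to 260, 209 and 242 CPM (log2 2.33 ± 0.13), and *Cdk1*, the mitotic kinase, from 2.69, 3.13 and 4.38 CPM to 19.2, 16.1 and 16.4 CPM (log2 2.33 ± 0.18). WT mouse 1 had the highest MHC I high level of all 3 genes. Among the replication genes *Ccne1*, the cyclin of S phase entry, rose from 4.87, 2.75 and 3.83 CPM to 27.2, 20.7 and 25.4 CPM (log2 2.68 ± 0.13), *Pcna*, the polymerase clamp, by 0.44 and *Mcm2*, a subunit of the helicase, by 0.53. *Kif23*, a kinesin of cytokinesis, fell from 78.4 to 70.4 CPM (log2 −0.18), and was not called without WT mouse 2 or without WT mouse 3 (adjusted p up to 0.26).

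Metabolic and ribosome genes went both ways, and shares of all genes are again 27.5% higher and 26.8% lower. Glycolysis genes split into 5 higher and 7 lower of 20, none by 2-fold, with a median of −0.01. The glucose transporters *Slc2a1* and *Slc2a3* fell by 0.35 and 0.52 on the log2 scale. *Pdk1*, which holds pyruvate back from oxidation in mitochondria, rose from 195 to 314 CPM (log2 0.71), and *Ldha* was level at 357 and 374 CPM. *Gapdh* measured 10.8 and 5.68 CPM, a value made uncertain by its many near-identical copies in the mouse genome. Of 22 ribosome biogenesis genes 4 rose and 9 fell (median −0.10), *Myc* rising from 78.3 to 97.3 CPM (log2 0.28). Of 19 genes of sterol and fatty acid synthesis 11 fell and 3 rose (median −0.22).

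Of 11 genes of the regulatory T lineage 6 rose, 2 fell and 3 were not called (median 0.34). Among all genes 27.5% rose and 26.8% fell. CD25+ cells had been gated out, and *Il2ra*, its gene, measured 16 and 13.6 CPM (adjusted p = 0.412). *Foxp3*, the factor of regulatory T cells, rose from 1.09, 0.64 and 0.55 CPM to 6.95, 3.58 and 4.34 CPM (log2 2.56 ± 0.23), and *Ctla4* from 3.87 to 17.5 CPM (log2 2.14). *Ikzf2* (Helios) fell from 874 to 528 CPM (log2 −0.68). Among 16 tested genes of γδ and innate-like T cells 10 rose and 4 fell (median 0.73, and −0.08 among those with at least 10 counts in every sample). The medians here and in the lineage list are the same with *Klrd1* and *Tbx21*, which were at or under 3 counts in every MHC I low sample, set to their lower limits. *Nkg7*, a granule protein, rose from 1.15, 1.02 and 0.94 CPM to 38.5, 45.7 and 36.5 CPM (log2 5.12 ± 0.21). *Klrd1* (CD94), at 0.00, 0.06 and 0.00 CPM in MHC I low cells, stood at 3.72, 3.39 and 2.35 CPM in MHC I high cells, at least 15.3-fold above the level of 3 counts per library. *Trdc*, the γδ TCR constant gene, rose from 12.5 to 26.3 CPM (log2 1.07) although cells with the γδ TCR on their surface had been excluded. *Id2* and *Sox13* fell by 1.63 and 1.99 on the log2 scale.

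Markers of other cell types were then summed over each list. The B-cell markers lay at 85.7 to 101.9 CPM in MHC I low and at 148.2 to 166.3 CPM in MHC I high samples, of which *Ighm* made up 86.9 and 148.5 CPM on average, and *Pax5*, which defines B cells, was at 0. The receptor chains *Cd79a* and *Cd79b* averaged 0.94 and 3.98 CPM in MHC I low and 2.07 and 3.03 CPM in MHC I high cells. Myeloid and dendritic markers lay at 32.7 to 37.4 and 30.7 to 35.8 CPM with *S100a8* and *S100a9* at 0, and erythroid markers at 1.02 to 1.67 and 0.83 to 1.76 CPM. Thymic epithelial markers lay at 58.1 to 62.2 and 85.1 to 94.4 CPM, led by *Ly75* (24.9 and 59.8 CPM), which had the largest rise in CPM. *Ctsl*, the next in level, went the other way, at 22.55 and 13.37 CPM, and *Epcam* was nearly level at 7.67 and 7.89 CPM. *Prss16* measured 0.35 and 3.21 CPM, and *Foxn1*, *Krt14* and *Ccl21a* were at 0. NK markers lay at 10.8 to 11.0 and 16.7 to 21.7 CPM, led by *Prf1*, with *Ncr1* and *Klra8* at 0. The sums of the B-cell, thymic epithelial and NK lists were higher in every MHC I high than in every MHC I low sample, and their part in the changes was not tested.

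Outside the lists, the 8 largest changes in each direction were taken among genes with at least 10 CPM in the higher fraction. *Rflnb*, a filamin regulator, rose from 0.26, 0.64 and 0.55 CPM to 37.4, 39.2 and 29.5 CPM (log2 6.02 ± 0.21), and *Adgrg5*, an adhesion G protein-coupled receptor, from 3.59, 3.01 and 2.50 CPM to 139, 139 and 126 CPM (log2 5.41 ± 0.10). *Rarg*, a retinoic acid receptor, rose from 2.24, 1.47 and 1.96 CPM to 47.8, 45.1 and 42.6 CPM (log2 4.49 ± 0.18). The other 5 that rose, *Gpr55*, *Adam19*, *Ms4a4c*, *Ms4a4b* and *Ly6a* (Sca-1), did so by 3.84 to 4.25 on the log2 scale. *Dmwd* fell from 53.7, 69.4 and 54.1 CPM to 3.31, 3.89 and 3.17 CPM (log2 −4.09 ± 0.11), and *Tox2*, a relative of *Tox*, from 26.3, 26.2 and 20.4 CPM to 2.59, 2.32 and 1.72 CPM (log2 −3.53 ± 0.16). The other 6, *C030034L19Rik*, *Mpp4*, *Scn4b*, *Adam12*, *Gpr153* and *Edaradd*, fell by 2.78 to 3.87 on the log2 scale.

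The WT change was then set beside that in the mutants, to test where it differed. *Rbck1* was at 0.27 to 0.78 CPM in *Hoil* ΔCd4 MHC I low and at 3.72 to 8.94 CPM in MHC I high samples, beside 217 to 268 CPM in the 6 WT samples, in the direction that the label gives. The cpdm allele leaves *Sharpin* transcripts measurable, at 66.4 to 77.9 CPM, so their level did not check the label by loss. Of the 1341 genes that changed by at least 2-fold in WT, 1311 moved in the same direction in *Hoil* ΔCd4 and 1305 in *Sharpin* cpdm cells, and 1137 and 1183 of these were called there too. Across all genes the changes correlated with WT at Pearson r = 0.884 and 0.88, over 12798 genes that are not independent and with no animal shared. *Sharpin* cpdm mice also differ from WT in strain background, which cannot be told apart from genotype here. The difference in change from WT, tested as an interaction, was called for 51 genes in *Hoil* ΔCd4 (0.398%) and for 400 in *Sharpin* cpdm (3.13%). Without WT mouse 3 the counts were 0 and 104, with 855 genes at an unadjusted p under 0.05 for *Hoil* ΔCd4, where edgeR called 73 with all mice. Of 64 MHC I chain, peptide supply and interferon list genes, limma called the difference for 0 in either mutant, with 4 (*Hoil* ΔCd4) and 12 (*Sharpin* cpdm) at an unadjusted p under 0.05. Over all 12798 genes, 1338 and 2287 had such an unadjusted p. With the mouse as a fixed instead of a random block, 0 and 14 of the 64 genes were called by limma and 0 and 12 by edgeR. Both sets in *Sharpin* cpdm included *Ifit1*, *Isg15*, *Irf7* and *Bst2*. Over all 12798 genes these analyses called 77 and 634 (limma) and 73 and 461 (edgeR). The list count for *Sharpin* cpdm thus depended on how the mouse entered the model.

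The list genes that differed from WT are given by list. Of all genes tested, 0.398% differed in *Hoil* ΔCd4 and 3.13% in *Sharpin* cpdm. Of the 15 DP-stage genes 1 differed in *Hoil* ΔCd4 and 5 in *Sharpin* cpdm. In G2 and mitosis 21 of 28 genes differed in *Sharpin* cpdm and 1 in *Hoil* ΔCd4, and the median change was 1.91 in WT, beside 2.39 (*Hoil* ΔCd4) and 3.16 (*Sharpin* cpdm). *Mki67* went from 44.2 ± 3.62 to 220 ± 31.2 CPM in WT and from 28.1 ± 4.09 to 337 ± 64.9 CPM in *Sharpin* cpdm (difference 1.31 ± 0.20 on the log2 scale, adjusted p = 0.00431). Its mean was thus below WT in MHC I low and above WT in MHC I high cells of *Sharpin* cpdm mice. *Rag1* fell by 1.00 on the log2 scale in WT, from 163 ± 7.95 to 84.7 ± 8.21 CPM, but measured 121 ± 10.8 and 114 ± 22.1 CPM in *Sharpin* cpdm (difference 0.92 ± 0.19, adjusted p = 0.0201, called in 9 of 16 alternative analyses). In *Hoil* ΔCd4 cells 7 of 32 replication genes differed from WT, all with a larger rise, such as *Uhrf1* at 1.57 beside 0.88 (difference 0.69 ± 0.11, adjusted p = 0.00489, called in 11 of 16). Without WT mouse 3 the *Hoil* ΔCd4 count over all genes was 0, with 855 at an unadjusted p under 0.05 in limma. *Cxcr4* fell by 1.02 on the log2 scale in WT and changed by −0.34 in *Hoil* ΔCd4 cells (difference 0.69 ± 0.12, adjusted p = 0.00805, called in 10 of 16).

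**Figure D4:**
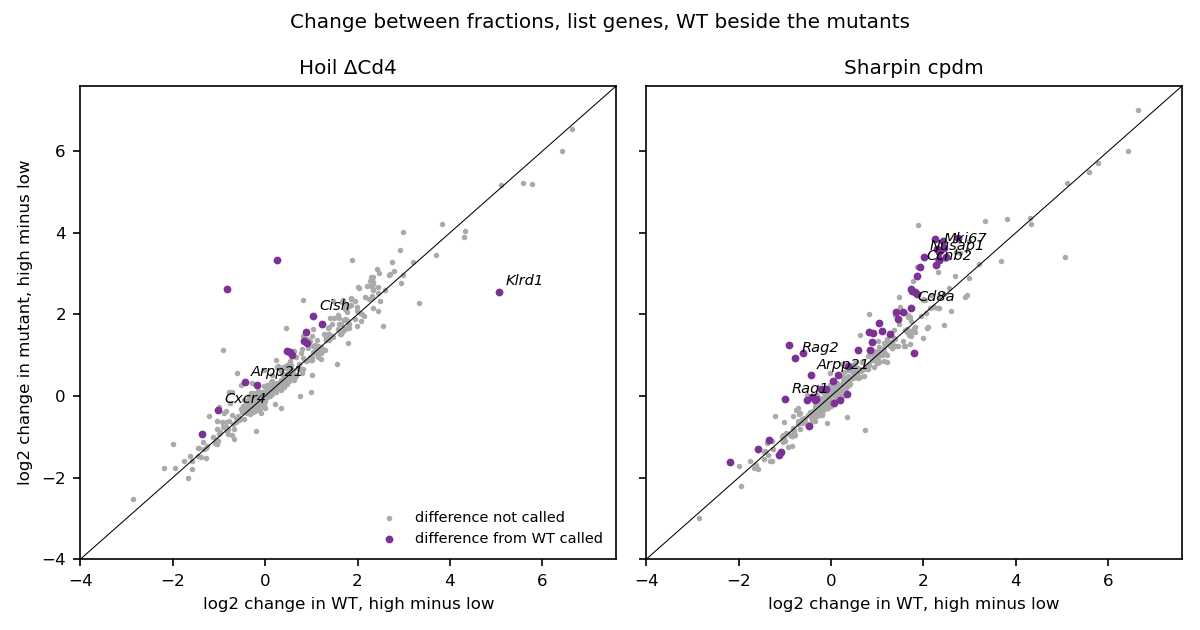
The log2 change between fractions in WT (horizontal axis) against that in *Hoil* ΔCd4 (left) and *Sharpin* cpdm (right), for the list genes, a point for each gene, with the line of equality. Purple points are genes whose change differed from WT by the interaction test. Most points lie along the line, the 2 purple points far above it on the left are the deleted gene *Rbck1* (0.25 in WT, 3.33 in *Hoil* ΔCd4) and *Hes1*, and *Mki67*, *Nusap1* and *Ccnb2* lie above it on the right.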

How the data were processed

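RNA of the MHC I low and MHC I high fractions of CD69+ thymocytes was sequenced as single-end reads. The authors used Rsubread, with the subread aligner on mm10 and featureCounts with its built-in RefSeq annotation, to make a count for each gene. The deposited values are whole-number counts without normalization for 27179 genes, and replicates were not pooled. Versions, the strand setting and the treatment of multi-mapping reads are not given in the sources used here, so gene families, overlapping genes and antisense genes are uncertain. Of these genes 25275 were matched by Entrez Gene ID to RefSeq (GRCm38.p6), and 1904, with 0.655% of the counts, were not and were left out.

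The model of the study's methods was followed. Genes with at least 0.5 CPM in 3 samples were kept (13739), and without predicted genes, genes lacking a symbol, *Xist* and chromosome Y 12798 remained, of which 12284 pass the same filter within the 6 WT samples. One limma 3.58.1 model (R 4.3.3, edgeR 4.0.16 for TMM, statmod 1.5.0) was fitted to log2 CPM (prior count 1) of 18 samples in 6 groups, with sample quality weights and the mouse as a random block (correlation 0.224), and moderated by empirical Bayes with trend and robust options. The p-values were adjusted by Benjamini-Hochberg over all genes tested. Levels are means ± SD of 3 mice. No pair of WT samples of a fraction agreed within sampling noise. Pairs of mutant samples were not checked in this way, and all samples were kept. The precision of a value is set by the depth of 12808248 to 16266128 counts in WT samples and by 3 mice a group.

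The fractions of a mouse come from the same animal. Across genes, the correlation of their deviations from group means was 0.0702, 0.149 and 0.119 in the 3 WT mice and up to 0.256 in the others. Lists are described by counts of called genes and by medians, without a test of the list. Named were fixed anchor genes, in each list up to 3 genes a direction with the smallest p among called genes of the same sign in all mice and at least 5 CPM, the 8 largest changes a direction outside the lists at 10 CPM or more, and up to 3 genes a direction for each difference from WT. Other list members (such as *H2-Q7*, *Itgae*, *Ifit3*, *Mx1* and *Socs3*) were added after their values were seen. The comparison, lists and rules were chosen with earlier results of these data known. Some genes that these rules name are not reported here. The scripts were tested on simulated data. Alternatives were edgeR, DESeq2 1.42.0, other scalings, filters and prior count, predicted genes kept, no weights, no block, a fixed block, WT samples alone, and each mouse left out.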

Additional observations from a re-analysis of the deposited data

Results flagged for a closer look

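Named genes are given here whose change between the fractions differed between WT and a mutant by the interaction test in limma (adjusted p under 0.05 over 12798 genes, 3 mice a group). Each value is the mutant change minus the WT change on the log2 scale. In *Hoil* ΔCd4 the change was above that in WT for *Cish* (0.92), *Uhrf1* (0.69), *Rrm1* (0.51), *Cxcr4* (0.69), *Kif23* (0.44), *Arpp21* (0.78), *Cd40lg* (0.43) and *Mcm2* (0.54), and below it for *Klrd1* (−2.50), which had at most 1 count in a WT MHC I low sample. For *Cish*, an inhibitor of cytokine signalling, this meant a rise of 1.96 beside 1.04 in WT, from 11.7 ± 1.19 to 45.5 ± 9.59 CPM.

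In *Sharpin* cpdm the change exceeded that in WT for the mitotic genes *Nusap1* (1.41), *Ccnb2* (1.23), *Birc5* (1.19), *Ncapg* (1.11), *Mki67* (1.31), *Top2a* (1.03) and *Cdk1* (1.00) and the replication genes *Uhrf1* (0.43) and *Rrm1* (0.30). It was also above WT for the DP-stage genes *Rag2* (1.70), *Arpp21* (0.95) and *Rag1* (0.92), and *Rag2* rose by 0.92 where it fell by 0.78 on the log2 scale in WT. Further genes above WT were *Cd8a* (0.44), the transcription factor gene *E2f2* (0.46), *Nfkbia* (0.33), *Traf1* (0.48), *Myb* (0.27), *Ltb* (0.25), *Bcl2l11* (0.27) and *Themis* (0.24). Below WT were *Cd3e* (−0.29), *Tnfsf8* (−0.73), *Hk1* (−0.28), *Scn4b* (−1.36), *Bcl2* (−0.26), *Lef1* (−0.29) and *Tox2* (−0.82). Of these differences, those of *Nusap1*, *Ccnb2*, *Rag2*, *Arpp21* and *Birc5* in *Sharpin* cpdm were called in all 16 alternatives run. The others each lost their call in at least 1 alternative. In *Sharpin* cpdm *Themis* was called in 3 of 16, *Scn4b* in 6 of 15, and *Lef1*, *Ltb* and *Cdk1* in 7 of 16 each. In *Hoil* ΔCd4 *Klrd1* was called in 5 of 15, *Mcm2* in 6 of 16 and *Cish*, with the most, in 13 of 16. Both sets use the same WT samples, so a gene in both, such as *Uhrf1*, *Rrm1* or *Arpp21*, does not count as 2 independent differences. Strain background also differs between WT and *Sharpin* cpdm mice, and its part was not tested.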

How the results depend on the processing

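The counts in WT moved with the processing. No gene called in WT was called in the other direction in any of the 15 alternatives run for it, and the count of calls lay between 4953 and 6173 when a WT mouse was left out (6956 with all). DESeq2 on the WT samples alone, with the mouse as a fixed replicate block, called 4394 genes (2299 higher, 2095 lower). With at least 10 counts in every sample 752 genes changed by at least 2-fold (527 higher, 225 lower), since fewer genes with low counts were tested. As to the pairing, 6266 genes were called in WT with no replicate block and 6527 with the mouse as a fixed replicate block. Counts of differences from WT were less stable. For *Hoil* ΔCd4 and *Sharpin* cpdm they were 1 and 146 without a filter on low counts, 29 and 253 without sample quality weights, 6 and 124 without the replicate block, and 77 and 634 with a fixed replicate block. Leaving out a mouse gave 0 to 42 and 104 to 496. For *Hoil* ΔCd4 it was 0 without WT mouse 3, when 855 genes had an unadjusted p under 0.05 in limma, and 0 without *Hoil* ΔCd4 mouse 3, when 1140 did, while edgeR called 73 with all mice. The cause was not tested. Of the genes named here, *Bad*, *Tcf7*, *Kif23*, *Wdr12*, *Mcl1*, *Rag2* and *Arpp21* lost their call in at least 1 alternative. The median of the glycolysis list changed sign in 2 alternatives (up to 0.05, without WT mouse 1), that of γδ and innate-like genes with at least 10 counts in every sample (−0.08), and that of B-cell markers without a filter (−0.04).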
